A study of Mus musculus with 2 samples.

Results

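The 8 genes described here, Il1r1, Nek10, Tafa2, Chst9, Akain1, Gsg1l, Plk5 and Ccdc33, varied among the dentate granule nuclei of an adult mouse hippocampus profiled with Slide-tags. They are 8 of the 32285 genes counted. They were picked from measured values: each was among the 10 leading genes of 1 of the 2 clusters into which the granule nuclei fell. Il1r1, Nek10, Tafa2, Chst9 and Akain1 led granule cluster 1 and are called the first set, whereas Gsg1l, Plk5 and Ccdc33 led granule cluster 2 and are called the second set. The split between the sets and the high level in granule nuclei are therefore what chose the genes, and both are given as description without a test.

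Slide-tags marks nuclei in a frozen tissue section with spatial barcodes and then sequences their RNA one nucleus at a time. The adult library came from the hippocampus of 1 male mouse of the inbred strain C57BL/6J at 56 days of age. A library from a section of a C57BL/6J embryo brain at embryonic day 14 (E14) was the further contrast. There was 1 library per tissue, no treatment or transgene is named, and the positions of nuclei were not used here. With 1 library per tissue no comparison could be tested, since nuclei of a library are not replicates. The adult library held 15346746 unique molecular identifiers (UMIs, each marking a captured RNA molecule) in 1609 nuclei, and the E14 library held 58923882 in 9036. The median was 6607 UMIs per adult nucleus and 4204 per E14 nucleus, and 1 barcode occurred in both libraries.

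Dentate granule cells are the principal excitatory neurons of the dentate gyrus. They receive input from the entorhinal cortex and send mossy fibres to CA3 pyramidal cells, and the transcription factor Prox1 marks their identity. Granule cells are not uniform: they differ with age, with recent activity and along the dorsal to ventral axis of the hippocampus. The first set holds genes of varied function. Il1r1 encodes the signalling receptor of interleukin-1, Nek10 a NIMA-related kinase, Tafa2 a small secreted chemokine-like protein, Chst9 a sulfotransferase that acts on N-acetylgalactosamine, and Akain1 a small protein that binds protein kinase A and hinders its anchoring. In the second set, Gsg1l is an auxiliary subunit of AMPA-type glutamate receptors, Plk5 is a polo-like kinase family protein that lacks kinase activity, and Ccdc33 is a coiled-coil protein.

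In the GENCODE annotation of the mouse genome build GRCm38, the 8 genes are all protein-coding and none overlaps another. Tafa2, annotated there as Fam19a2, spans 477.2 kb (chr10:123263996-123741204, plus strand), of which 0.98% is exonic. The span of Plk5 is 9.0 kb (chr10:80356459-80365489, plus strand) and 29.7% exonic. Il1r1 spans 92.2 kb (chr1:40225080-40317257, plus strand), Nek10 208.6 kb (chr14:14803415-15012059, plus strand) and Akain1 49.9 kb (chr17:69439326-69489233, plus strand). On the minus strand, Gsg1l spans 204.0 kb (chr7:125878420-126082411) and Ccdc33 90.1 kb (chr9:58028677-58118823), and the span of Chst9 is 308.2 kb. The files give the identifiers ENSMUSG00000026072 for Il1r1, ENSMUSG00000042567 for Nek10, ENSMUSG00000044071 for Tafa2, ENSMUSG00000047161 for Chst9 and ENSMUSG00000091636 for Akain1. Those of the second set are ENSMUSG00000046182 for Gsg1l, ENSMUSG00000035486 for Plk5 and ENSMUSG00000037716 for Ccdc33. Intronic reads were counted, so a long gene offers more sequence per transcript, and levels are compared between classes of nuclei for the same gene, never between genes.

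The windows just upstream of the annotated starts are shown for 3 genes of the first set and 2 of the second, so that genes that varied in opposite directions can be read side by side. Each runs 5′ to 3′ on the gene's strand for up to 250 bases before the RefSeq start on GRCm38.p6, with annotated exonic bases left out. Capitals mark the letters of 4 motifs searched on both strands: the GC box (GGGCGG), the TATA box (TATAAA), the core of the cAMP response element (TGACG) and the AP-1 site (TGANTCA). The coordinates are chr1:40224830-40225079 for Il1r1, chr10:123263826-123263995 for Tafa2 and chr17:69439076-69439325 for Akain1. For Plk5 they are chr10:80356209-80356458 and for Ccdc33, on the minus strand, chr9:58102298-58102547. The RefSeq start of Ccdc33 thus lies inside its GENCODE span, which runs to 58118823 on the 5′ side, and not at the end of that span.
Il1r1: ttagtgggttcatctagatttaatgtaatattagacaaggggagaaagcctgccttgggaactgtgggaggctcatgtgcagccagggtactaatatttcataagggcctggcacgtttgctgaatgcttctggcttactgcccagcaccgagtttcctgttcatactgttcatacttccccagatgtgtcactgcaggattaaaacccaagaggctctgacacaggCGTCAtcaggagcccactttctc
Tafa2: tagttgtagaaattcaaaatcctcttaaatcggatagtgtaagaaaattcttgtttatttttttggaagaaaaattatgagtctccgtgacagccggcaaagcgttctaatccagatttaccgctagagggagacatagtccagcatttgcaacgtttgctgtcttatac
Akain1: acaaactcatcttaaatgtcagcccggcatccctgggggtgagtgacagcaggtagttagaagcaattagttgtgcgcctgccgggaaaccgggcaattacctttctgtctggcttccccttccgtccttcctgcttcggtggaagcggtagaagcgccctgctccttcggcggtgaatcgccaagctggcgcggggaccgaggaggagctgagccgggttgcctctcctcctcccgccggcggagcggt
Plk5: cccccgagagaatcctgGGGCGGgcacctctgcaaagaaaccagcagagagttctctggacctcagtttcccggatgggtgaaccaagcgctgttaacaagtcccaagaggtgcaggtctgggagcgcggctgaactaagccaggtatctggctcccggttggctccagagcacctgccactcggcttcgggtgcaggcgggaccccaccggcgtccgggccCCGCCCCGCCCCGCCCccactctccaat
Ccdc33: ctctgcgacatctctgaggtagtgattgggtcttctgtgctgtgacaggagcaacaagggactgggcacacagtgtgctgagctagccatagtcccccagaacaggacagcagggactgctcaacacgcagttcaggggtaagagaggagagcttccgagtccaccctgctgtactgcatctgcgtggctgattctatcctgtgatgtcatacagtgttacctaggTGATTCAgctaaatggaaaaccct
No capitalised motif occurred in more than 1 of the 5 windows shown. RefSeq gives Il1r1 a second start, whose window (chr1:40266336-40266585) held a GC box and no TGACG, and the second window of Ccdc33 lies within the one shown. The window shown for Il1r1 held TGACG, read on the opposite strand, from 23 bases before the start, a motif present in 17.7% of 32817 RefSeq promoter windows. Plk5 held the GC box 4 times, 3 of them overlapping and read on the opposite strand just before the start, against 32.7% of all windows with a GC box. Ccdc33 held an AP-1 site from 24 bases before the start, against 6.75% of all windows. Neither Tafa2 nor Akain1 held any of the 4 motifs, and the window of Tafa2 covered 170 bases. The E-box (CANNTG), which is in 66.2% of all windows and is not capitalised, occurred in 4 of the 5 and not in Akain1. A match describes letters and is not a measured site, and the absence of a match says only that the letters are not in the window. The window of Nek10 held a TATA box, as did 12.4% of all windows, and is not shown. Gsg1l and Chst9 were not searched for motifs here.

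The granule class was named from listed markers. The adult nuclei formed 17 clusters, and 2 of these, with 218 and 209 nuclei, met the marker rule for dentate granule cells, giving 427 dentate granule-like nuclei of 1609. The same markers named the clusters, so their levels describe the class and are not a separate check of it. Of the 10 listed granule markers, 9 had summed levels at least 4.93 times those in all other nuclei: Dsp, a desmosomal protein, stood at 15.6 times and the synaptic C1q-like protein C1ql2 at 14.2 times. Prox1 stood at 4.93 times, and Slc17a7, the vesicular glutamate transporter of most forebrain excitatory neurons, at 1.29 times. The median was 11371 UMIs per granule nucleus against 3636 in the 1182 other nuclei. Among the others, 198 CA1-like nuclei formed a cluster with a median of 814 UMIs, treated apart from the 183 deeper CA1-like nuclei, and 169 nuclei stayed unnamed.

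All 8 genes were at least 4 times higher in granule nuclei than in the other nuclei together. Of all 13903 genes with 50 or more UMIs, 1.55% reached that ratio, but because high granule levels entered the choice of these genes, nothing is read from their count. Levels are given as CPM: the UMIs that a gene had in a class were added up, divided by the UMIs of every gene in that class and scaled to 1000000, with 95% exact Poisson intervals. Intervals of ratios come from the conditional binomial distribution, and all intervals cover counting error only. For a count of 0 the limit given is that of 3 counts, which lies below the upper end of the Poisson or binomial interval.

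In the first set, Tafa2 stood at 1524 CPM (1492 to 1556) in granule nuclei and 147 CPM (139 to 155) in the others, a ratio of 10.4 (9.80 to 11.0). Nek10 was at 66.9 CPM (60.4 to 74.0) against 3.12 (2.10 to 4.45), a ratio of 21.5 (14.8 to 32.3). Il1r1 was at 48.6 CPM (43.0 to 54.6) against 6.75 (5.21 to 8.61), a ratio of 7.19 (5.47 to 9.57). For Akain1 the levels were 45.1 CPM (39.7 to 50.9) and 5.51 (4.13 to 7.20), a ratio of 8.18 (6.07 to 11.2). Chst9 had the smallest ratio, 5.91 (5.15 to 6.80), from 161 CPM (151 to 172) in granule nuclei and 27.2 (24.0 to 30.7) elsewhere. Granule nuclei held between 77.9% (Chst9) and 92.7% (Nek10) of all UMIs of each gene of the first set.

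In the second set, Ccdc33 was the most restricted, with 322 of its 331 UMIs (97.3%) in granule nuclei. Its level was 56.3 CPM (50.3 to 62.7) there and 0.935 CPM (0.428 to 1.78) elsewhere, a ratio of 60.1 (31.3 to 133). Plk5 was at 76.3 CPM (69.4 to 83.8) against 3.74 (2.62 to 5.18), a ratio of 20.4 (14.5 to 29.5). Gsg1l was at 124 CPM (115 to 134) against 20.2 (17.4 to 23.2), a ratio of 6.17 (5.26 to 7.27). The share of nuclei with at least 1 UMI followed the same contrast: in granule nuclei it ran from 31.4% (Akain1) to 96.0% (Tafa2). For comparison, in the deeper CA1-like nuclei, with a median of 18727 UMIs, the share was 0.546% for Il1r1 and Ccdc33, 1.09% for Nek10, 1.64% for Plk5 and 3.28% for Akain1. It was higher for Chst9 (7.10%), Tafa2 (9.29%) and Gsg1l (24.6%). At an equal depth of 1000 UMIs per nucleus, which left out 1 granule nucleus, the shares in granule nuclei ran from 2.11% (Akain1) to 68.5% (Tafa2). In the 183 CA1-like nuclei at that depth, Tafa2 had 1.09%, Chst9 and Gsg1l 0.546%, and the other 5 genes 0, which allows up to 1.64%.

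**Figure D1:**
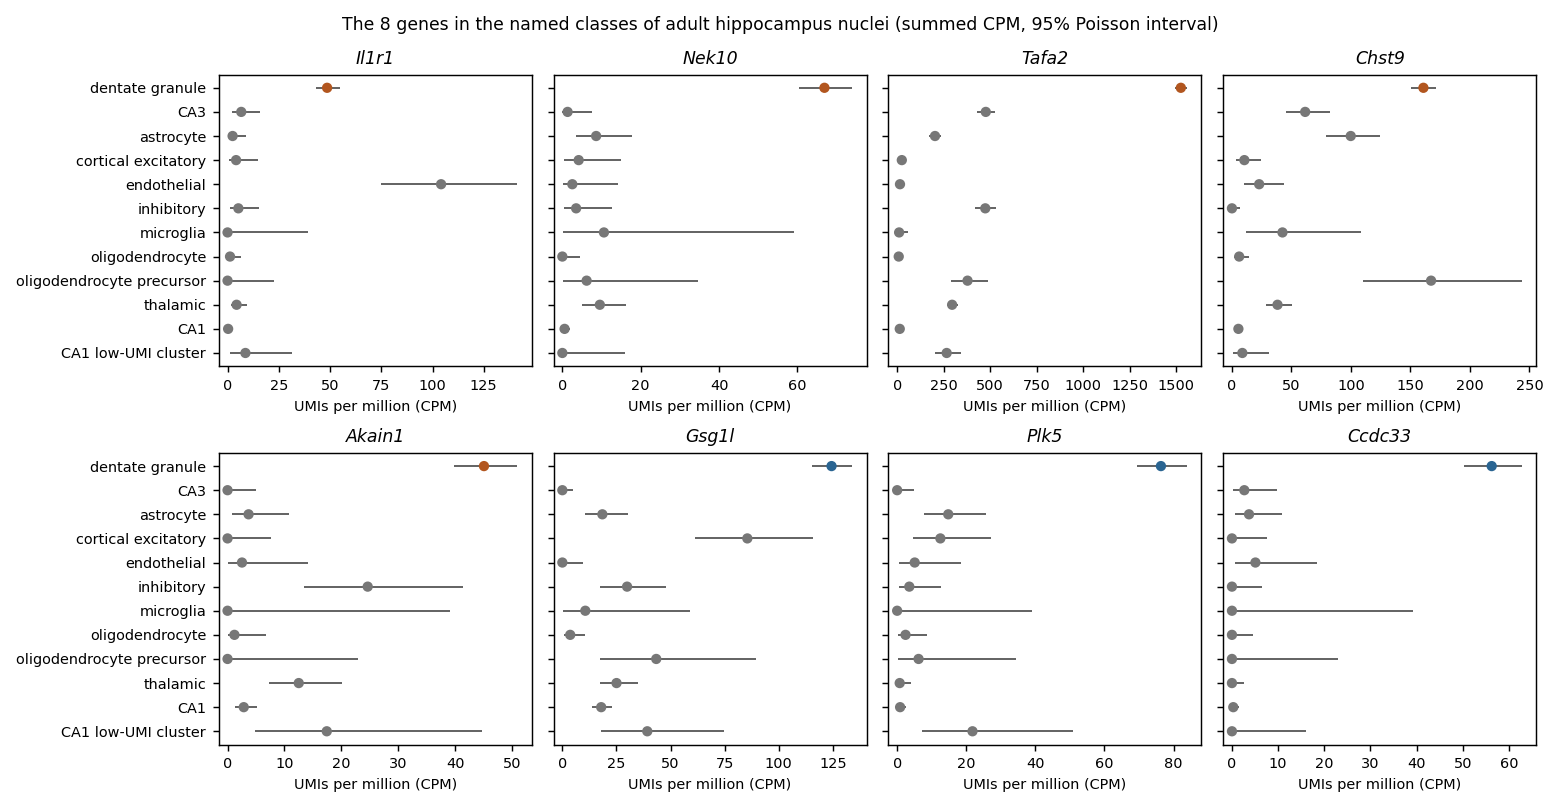
Level of each of the 8 genes in the named classes of adult hippocampus nuclei, in CPM (horizontal axis); points are summed levels, lines 95% Poisson intervals, and the class names are those of marker-defined "-like" classes. Dentate granule nuclei are coloured, orange for the first set and blue for the second; the points above those of granule nuclei are Il1r1 in endothelial-like nuclei (104 CPM) and Chst9 in oligodendrocyte precursor-like nuclei (167 CPM).

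Each gene had its own pattern outside the granule class, as the plot of levels by class shows. Il1r1 was highest in endothelial-like nuclei, at 104 CPM (74.8 to 141), from 41 UMIs in 12 of 59 nuclei. That interval lies above the granule interval, and every other named class was at 8.72 CPM or less. Brain endothelium is a known site of interleukin-1 receptor expression. The ligands of the receptor, Il1a and Il1b, were nearly absent from the whole adult library. Each had 1 UMI in the 427 granule nuclei. In the other nuclei Il1a was at 0.208 CPM and Il1b at 0, which allows up to 0.312 CPM. Chst9 was at 167 CPM (110 to 243) in 27 oligodendrocyte precursor-like nuclei, an interval that holds the granule level, and at 99.8 CPM (79.3 to 124) in astrocyte-like and 61.5 (45.0 to 82.1) in CA3-like nuclei. In 43 inhibitory-like nuclei Chst9 had 0 UMIs, which allows up to 5.28 CPM.

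Tafa2 was the most widespread. CA3-like nuclei had 476 CPM (428 to 528) and inhibitory-like nuclei 473 CPM (418 to 533), levels that do not differ beyond counting error, followed by oligodendrocyte precursor-like nuclei at 378 (289 to 486) and thalamic-like nuclei at 295 (267 to 326). The deeper CA1-like nuclei had 13.96 CPM (10.3 to 18.5), so granule nuclei exceeded them 109-fold (82.5 to 148) but exceeded CA3-like nuclei 3.20-fold (2.88 to 3.57). The shallow CA1-like cluster, in contrast, had 266 CPM (203 to 342), from 61 UMIs in 10 of 198 nuclei. Akain1 was next highest in inhibitory-like nuclei, at 24.6 CPM (13.5 to 41.3). Nek10 did not pass 10.6 CPM in any other named class, a value that rests on 1 UMI in microglia-like nuclei.

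Gsg1l was next highest in cortical excitatory-like nuclei, at 85.5 CPM (61.3 to 116), where 19 of 29 nuclei had a UMI, and the upper end of the interval meets the lower end of that of granule nuclei. The CA1-like level was 18.0 CPM (13.8 to 23.0). In the 35 CA3-like nuclei, with a median of 18913 UMIs, Gsg1l, Akain1 and Plk5 each had 0 UMIs, which allows up to 4.01 CPM. Outside granule nuclei Plk5 was highest in the shallow CA1-like cluster, at 21.8 CPM (7.08 to 50.9) from 5 UMIs, and in astrocyte-like nuclei at 14.8 CPM (7.64 to 25.8). Ccdc33 stayed at or below 5.08 CPM in all other named classes, with 0 UMIs in 7 of 11, which allows from 2.21 CPM in thalamic-like to 31.8 CPM in the shallow microglia-like nuclei.

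Within the granule class, 406 of the 427 nuclei had 5000 or more UMIs, 203 in each cluster, with a median of 11741 and a range of 5129 to 80823. To remove depth from the comparison, each nucleus was thinned at random to 5000 UMIs. Tafa2 then had a UMI in 385 of 406 nuclei (94.8%), with a median of 6 and a highest value of 27 UMIs. The other 7 genes had medians of 0: Chst9 was seen in 180 nuclei (44.3%), Gsg1l in 158 (38.9%), Plk5 in 112 (27.6%), Nek10 in 107 (26.4%), Ccdc33 in 92 (22.7%), Il1r1 in 91 (22.4%) and Akain1 in 65 (16.0%). A gene whose molecules were scattered at random would have a variance equal to its mean. Here the variance was 3.59 times the mean for Tafa2, 1.82 times for Gsg1l and 1.53 times for Chst9, and between 1.14 (Akain1) and 1.49 times (Ccdc33) for the other 5. Thus 3 of the 8 reached 1.5 times, against 5.45% of 9654 genes with a mean of at least 0.05 UMIs per thinned nucleus, and nothing is read from that count, since variation chose the genes.

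The levels in the 2 clusters, which chose the genes, were as follows. Among the first set, Akain1 was at 69.1 CPM in cluster 1 and 17.0 in cluster 2, a ratio of 4.05. Il1r1 was at 69.4 and 24.2 CPM (2.86), Chst9 at 226 and 84.8 (2.66), Tafa2 at 1897 and 1088 (1.74) and Nek10 at 81.4 and 50.0 (1.63). Among the second set, Gsg1l was at 45.1 CPM in cluster 1 and 217 in cluster 2, 4.81 times higher in the latter. Plk5 was 2.76 times higher in cluster 2 (42.2 and 116 CPM) and Ccdc33 1.84 times (40.5 and 74.6 CPM). Thus no gene was confined to 1 cluster. The clusters' other leading genes ran from 1.78 (Gm27151) to 7.03 times (Ryr1) higher in cluster 1 and from 1.63 (Gm34567) to 35.6 times (Gm30551) in cluster 2, so the 8 genes do not hold the largest ratios. The clusters had similar depth, with medians of 11846 and 10862 UMIs, and mitochondrial shares of 0.0796% and 0.0673%.

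Whether the genes rose and fell together was read from Pearson's r of log-scaled levels over the 406 thinned nuclei, for all 28 pairs. These nuclei share 1 library, the counts are sparse, and r is given as a description with no p. Within sets, 12 of 13 pairs had a positive r, with a median of 0.11, and between sets 15 of 15 had a negative r, with a median of -0.067. As the sets come from the clusters, these signs follow from the choice. The counts were lower at 2000 UMIs per nucleus, with 7 of 13 and 10 of 15, within cluster 1, with 6 of 13 and 9 of 15, and within cluster 2, with 10 of 13 and 6 of 15. The values were small. No pair reached 0.2, compared with 0.157% of 77168 pairs of 1 of the 8 with any other gene. The highest were Gsg1l with Plk5 at 0.18 and Tafa2 with Akain1 at 0.17, which stood at -0.018 and -0.027 at 2000 UMIs per nucleus. Il1r1 and Nek10, of the same set, had an r of -0.0078.

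At the other end, 3 of 28 pairs were at -0.2 or below, compared with 0.0842% of pairs with any other gene. All 3 had Gsg1l: with Tafa2 (-0.27), with Chst9 (-0.22) and with Il1r1 (-0.21). The value with Il1r1 was near the limit: it was -0.13 with a second random thinning, -0.16 with the marked doublets removed and -0.077 at 2000 UMIs per nucleus. Of the 91 nuclei with an Il1r1 UMI, 18.7% had a Gsg1l UMI, against 44.8% of the 315 without. Of the 180 nuclei with a Chst9 UMI, 27.8% had a Gsg1l UMI, against 47.8% of the 226 without. Within the clusters taken separately, none of the 28 pairs was at -0.2 or below, and Il1r1 with Gsg1l stood at 0.0077 in cluster 1 and 0.021 in cluster 2. Values of -0.2 or below were thus seen with the clusters pooled, and the clusters chose the genes.

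**Figure D2:**
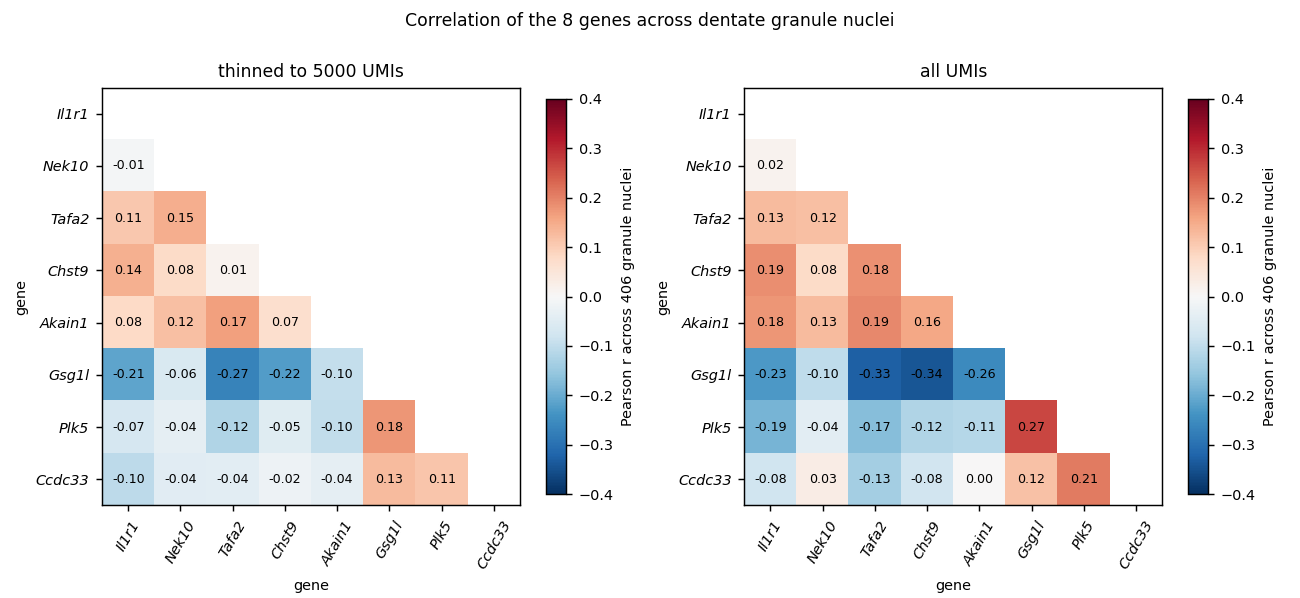
Pearson's r of each pair of the 8 genes across 406 dentate granule nuclei (colour and printed value), from counts thinned to 5000 UMIs per nucleus (left) and from all counts (right). The values of Gsg1l with Tafa2, Chst9 and Il1r1 are -0.27, -0.22 and -0.21 on the left and -0.33, -0.34 and -0.23 on the right, where Gsg1l with Akain1 also stands at -0.26.

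Sorting the nuclei of both clusters by Gsg1l gives the size of the pattern. Gsg1l led cluster 2 and the first set led cluster 1, so the directions follow from the choice. With 0, 1 and 2 or more thinned UMIs of Gsg1l there were 248, 89 and 69 nuclei. The mean of Tafa2 was 8.25 UMIs per nucleus (7.90 to 8.62) in the nuclei without Gsg1l, 5.67 (5.19 to 6.19) in those with 1 UMI and 5.25 (4.72 to 5.82) in those with 2 or more. The mean of Chst9 was 0.935 (0.819 to 1.06), 0.528 (0.388 to 0.702) and 0.362 (0.234 to 0.535) in the same order. That of Il1r1 was 0.367 (0.295 to 0.451), 0.146 (0.0778 to 0.250) and 0.130 (0.0596 to 0.248). Plk5 went the other way, from 0.270 (0.209 to 0.343) to 0.528 (0.388 to 0.702) and 0.594 (0.426 to 0.806). For these genes the means changed more between 0 and 1 UMI of Gsg1l than between 1 and 2 or more, where the intervals overlapped. The intervals cover counting error only, and the variance of Tafa2 was 3.59 times its mean. Nek10, Akain1 and Ccdc33 had overlapping intervals across all 3 groups, with means of 0.278, 0.393 and 0.449 for Ccdc33.

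The sets did not exclude each other in a nucleus. Leaving out Tafa2, which nearly all nuclei had, 124 of 406 nuclei (30.5%) had UMIs of the first set only, 94 (23.2%) of the second set only, 151 (37.2%) of both and 37 (9.11%) of neither, at 5000 UMIs each.

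Each gene was also read against the other 7. For this, each nucleus was given a score, the mean standardised level of the first set minus that of the second with the gene in question left out, and the nuclei were ranked by it. From the 135 lowest to the 136 highest nuclei, Akain1 went from 29.9 CPM (22.2 to 39.4) to 62.8 (52.6 to 74.4), 2.10 times higher (1.51 to 2.97). Il1r1 went from 33.7 CPM (25.6 to 43.7) to 69.0 (58.3 to 81.0), 2.04 times (1.5 to 2.83). Chst9 was 1.78 times higher (1.51 to 2.12), Tafa2 1.72 times (1.63 to 1.82) and Nek10 1.42 times (1.09 to 1.85). In the opposite direction, Gsg1l went from 198 CPM (178 to 221) to 58.0 (47.8 to 69.7), 3.42 times lower (2.76 to 4.27). Plk5 was 2.28 times lower (1.77 to 2.96) and Ccdc33 1.72 times lower (1.30 to 2.30). The middle 135 nuclei lay between the ends for all 8. The same nuclei chose the genes, so the directions follow from the choice.

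**Figure D3:**
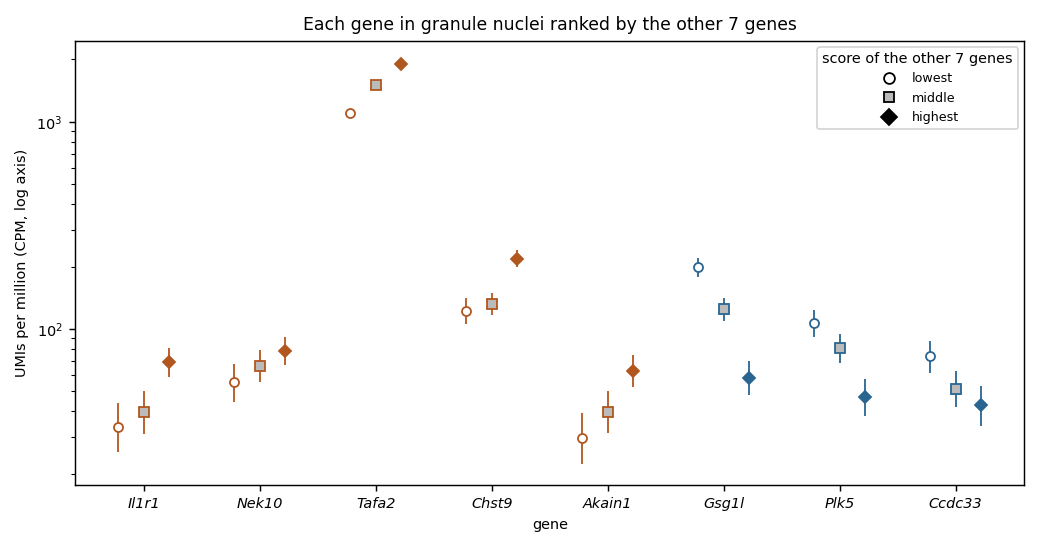
Level of each of the 8 genes (CPM, log axis, with 95% Poisson intervals) in granule nuclei ranked by a score of the other 7 genes: the 135 lowest (open circles), the middle 135 (grey squares) and the 136 highest (filled diamonds). Orange genes belong to the first set and rise with the score, blue genes to the second set and fall; Gsg1l has the widest step, from 198 to 58.0 CPM.

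Other properties of the nuclei moved with the score of all 8 genes. The median rose from 10517 UMIs in the lowest 135 to 11526 in the middle 135 and 13544.5 in the highest 136, the share of Malat1, a nuclear RNA, fell from 5.99% to 5.54% and 5.44%, and 1, 2 and 5 nuclei were marked as likely doublets. The summed markers of oligodendrocytes were at 354 CPM (326 to 384), 291 (267 to 316) and 503 (473 to 534) in the same order, with 7, 8 and 8 of 8 markers seen. Mog had 0 UMIs in the lowest and 20 in the highest nuclei. The astrocyte markers rose from 874 to 1055 and 1308 CPM, of which 74.7% were of Slc4a4, a bicarbonate transporter, while Aqp4 had 1 and 16 UMIs in the lowest and highest nuclei and Aldh1l1 0 and 2. The inhibitory markers went from 2321 to 1827 and 1737 CPM, 95.8% of them Adarb2, with Vip at 0 throughout. Gad1, Gad2 and Pvalb also fell in CPM, while Erbb4, Sst and Slc32a1 rose. Erbb4 had 24 and 71 UMIs, and Sst 0 and 11, in the lowest and highest nuclei. The microglia markers were at 215, 304 and 244 CPM, the CA3 markers at 969, 996 and 1208, the CA1 markers at 58.0, 47.3 and 38.1, and the endothelial markers at 8.97, 15.2 and 11.6. Of the CA3 sum, 70.6% was Cdh8, which went from 590 to 930 CPM in the lowest and highest nuclei. Cpne4 fell from 338 to 238 CPM and Nectin3 from 12.0 to 1.93, while the other listed CA3 markers rose. The markers of mossy cells, the other excitatory neurons of the dentate gyrus, were at 39.4, 39.4 and 35.7 CPM, with Drd2 and Csf2rb2 at 0. The part of these in the pattern was not tested. With the marked doublets removed, 2 of 28 pairs were at -0.2 or below, and 2 with r taken after a linear fit on depth, mitochondrial share and Malat1 share.

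Genes were then ranked by their r with each of the 8, among the rest of the 8 and 9646 genes outside them. Gsg1l had the closest neighbours. Its highest values were with Nrxn3, a presynaptic neurexin (0.38), Nrg1, a growth factor (0.38), the long noncoding RNA Snhg11 (0.36), the diacylglycerol kinase Dgkb (0.35) and the adhesion receptor Adgrl3 (0.33). Its lowest were with the cation channel Trpm3 (-0.33), Ahcyl2 (-0.33) and the transcription factor Rfx3 (-0.31). Tafa2 mirrored this list: it was highest with Ahcyl2 (0.36), Nkain2 (0.35), Egfem1 (0.32), Auts2 (0.30) and Nav3 (0.30), and lowest with Nrxn3 (-0.31), Snhg11 (-0.30) and Nrg1 (-0.30). Chst9 was also highest with Ahcyl2 (0.29), then with Trpm3 (0.26), Camk2a (0.26), Hectd2os (0.25) and Tenm1 (0.25), and lowest with Nrg1 (-0.24), Gsg1l (-0.22) and Tenm2 (-0.22). These rankings pool the clusters that chose the 8 genes, so opposite lists for genes of opposite sets follow from the choice. With the score of all 8 genes, Snhg11 stood at -0.46 over both clusters, -0.22 within cluster 1 and -0.19 within cluster 2.

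Il1r1, Akain1, Plk5 and Nek10 had neighbours of lower r, and they also had fewer UMIs. Their means were 0.185 (Akain1) to 0.382 (Plk5) UMIs per thinned nucleus, against 0.687 for Gsg1l, 0.749 for Chst9 and 7.18 for Tafa2. The part of this in the lower r was not tested. For Il1r1 the highest were Arpc2, of the actin-nucleating Arp2/3 complex (0.23), Sphkap (0.23), Hmg20b (0.21), Tenm1 (0.20) and Syt10 (0.20), and the lowest Gsg1l (-0.21), Mapk4 (-0.21) and Map2k6 (-0.19). For Akain1 they were Mtmr12 (0.23), Slc4a4 (0.22, an astrocyte marker above), Arhgap39 (0.22), Pakap (0.21) and Mast4 (0.20), and the teneurin Tenm2 (-0.26), the calcium pump Atp2b2 (-0.23) and Cntnap5a (-0.22). Plk5 was highest with Snhg11 (0.27), Mapk4 (0.23), 1700007J10Rik (0.22), Cebpb (0.21) and Gm48091 (0.20), and lowest with Rapgef5 (-0.20), Grb14 (-0.19) and Trpm3 (-0.18). Nek10 reached 0.24 with F730043M19Rik and otherwise stayed at or below 0.18, with Tpd52l1 (0.18), Exoc4 (0.18), Tbc1d22bos (0.18) and Ccdc130 (0.16), and its lowest were Nrxn3 (-0.17), Ewsr1 (-0.16) and Kdm5b (-0.16). Of the 9646 genes, 43 were at 0.2 or more with Tafa2, 39 with Gsg1l and 14 with Chst9, but 1 with Nek10.

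Ccdc33 stood apart, because its nearest gene overlaps it. Its highest r was with Stra6, which encodes a membrane receptor for retinol uptake (0.30), followed by Pot1a (0.22), Malat1 (0.22), Kbtbd2 (0.22) and Rsrp1 (0.21), and its lowest were Ppp1r13b (-0.17), Arl15 (-0.17) and Sh3rf3 (-0.17). Stra6 lies on the opposite strand of the same stretch of chromosome 9 (chr9:58063788-58153996, plus strand) and shares 55.0 kb, or 61.1% of the Ccdc33 span, with it. The window shown for Ccdc33 is inside that shared stretch. Of 71 thinned granule nuclei with a Stra6 UMI, 34 (47.9%, exact binomial interval 35.9 to 60.1) had a Ccdc33 UMI, against 58 of 335 (17.3%, 13.4 to 21.8) without. The r was 0.32 within cluster 1 and 0.29 within cluster 2, but its size depended on the UMIs drawn: it was 0.44 with a second thinning, 0.49 without thinning and 0.11 at 2000 UMIs per nucleus.

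Stra6, too, was a gene of the granule nuclei, at 42.3 CPM (37.1 to 48.0) against 1.87 (1.11 to 2.96) elsewhere, a ratio of 22.6 (14 to 38.8). Ccdc33 was at 40.5 CPM (33.7 to 48.3) in cluster 1 and 74.6 (64.6 to 85.8) in cluster 2, the values that chose it. Stra6, which was not chosen from the clusters, was at 39.9 (33.1 to 47.6) and 45.1 (37.3 to 53.9), with overlapping intervals. Nothing is read from this contrast, since 1 of the 2 genes was picked for its difference between the clusters. In the E14 brain Stra6 was at 8.45 CPM (7.73 to 9.23) and Ccdc33 at 2.17 (1.81 to 2.58). The strand setting used in counting is not given in the sources used here, so the values of Ccdc33 are uncertain where the 2 genes overlap, and whether reads of one were counted for the other was not tested. Akain1 also has an antisense partner, AC127693.1, over 4.6% of its span, but that gene had 6 UMIs in granule nuclei.

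**Figure D4:**
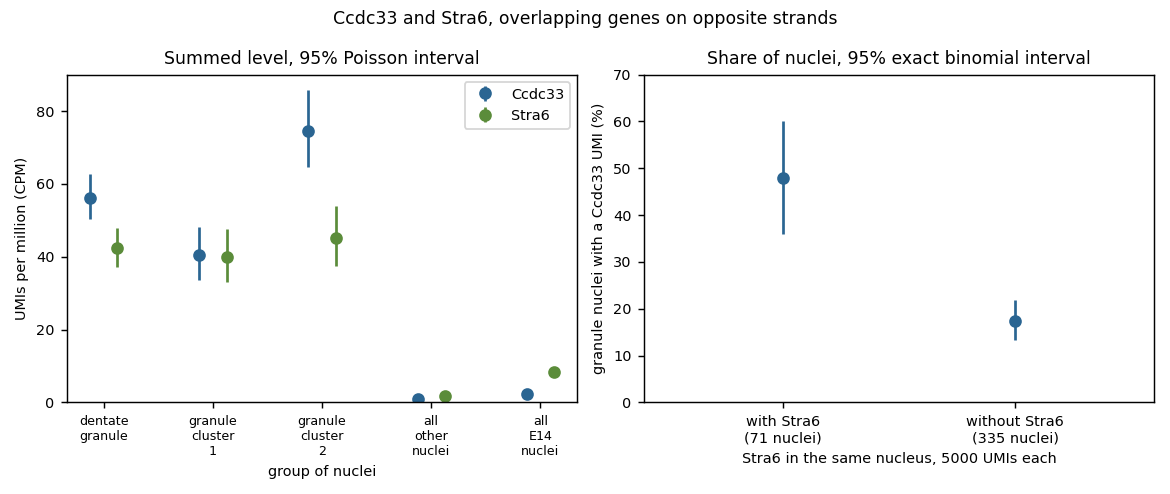
Ccdc33 and Stra6, which overlap on opposite strands: summed levels (CPM, 95% Poisson intervals) in the granule class, its clusters, all other adult nuclei and all E14 nuclei (left), and the percentage of granule nuclei with a Ccdc33 UMI among those with and without a Stra6 UMI (right, 95% exact binomial intervals). Ccdc33 is seen in 47.9% of nuclei with Stra6 and in 17.3% of those without.

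The families and pathways of the 8 genes were listed to see whether relatives moved with them. Across genes, 0.86% of 9646 had an r of 0.2 or more with the score of all 8, and 0.726% of -0.2 or less. Beside these, 5 listed genes reached 0.2 and 8 were at -0.2 or less. Most relatives did neither. Of the interleukin-1 list, 7 genes had enough UMIs for an r and 1 reached 0.2: Il1rap, the accessory protein that Il1r1 needs to signal. It had an r of 0.27 with the score and 0.21 with Chst9, and went from 423 CPM in the lowest 135 nuclei to 727 in the highest 136. With Il1r1 itself its r was below 0.2. The decoy receptor Il1r2 was at 16.2 CPM in granule nuclei, with an r of 0.028, and the signalling adaptor Myd88 had 2 UMIs.

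Among 4 other NIMA-related kinases and 2 other TAFA genes with enough UMIs, none reached 0.2 in either direction. Tafa1 was at 995 CPM in granule nuclei and 1308 elsewhere, and Tafa5 at 135 and 224, so unlike Tafa2 neither was higher in granule nuclei. Of 6 genes of the sulfotransferase list, 1 of them (B4galnt4) an N-acetylgalactosaminyltransferase, the sulfotransferase Chst1 reached 0.2, at 0.20. Of 17 protein kinase A subunits, inhibitors and anchors, the list of Akain1, none did, with a range from -0.17 to 0.052. In the list of AMPA receptor auxiliary proteins, to which Gsg1l belongs, 1 of 9 reached 0.2: Cnih3, a cornichon protein, had an r of 0.28 with the score and 0.24 with Tafa2. It thus lay on the side opposite to Gsg1l, from 75.9 CPM in the lowest nuclei to 183 in the highest. Among relatives with 50 or more UMIs, it was also the 1 that was at least 4 times higher in granule nuclei, at 134 against 28.6 CPM, a ratio of 4.68. The polo-like kinase Plk2, the 1 relative of Plk5 with enough UMIs, had an r of -0.062.

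Of 6 immature granule genes, Dcx among them, none was at 0.2 in either direction. Of 10 mature granule genes, Calb1, a calcium-binding protein (0.25), and the kinase Camk4 (0.22) were at 0.2 or more, while the axonal guidance protein Ntng1 (-0.38, and 0.27 with Gsg1l) and C1ql2 (-0.25) were at -0.2 or less. Ntng1 went from 955 CPM in the lowest nuclei to 451 in the highest. Of the dorsal granule markers other than Gsg1l, Lct (0.075), Spata13 (-0.070), Stra6 (-0.12) and Pdzd2 (0.17) did not reach the limits. The dorsal markers Wnt3 and Pamr1 had 1 and 0 UMIs in the granule nuclei. Of the 7 ventral markers, Nr2f1 had 140 UMIs (r of 0.022), Tox3 57 (r of -0.042), Efnb2 29, Resp18 25, Grp 15, Nr2f2 5 and Trhr 3, and the last 5 were too few for an r.

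Of 10 measured genes of the list of genes induced by neuronal activity, 4 were at -0.2 or less and none at 0.2 or more. Sorcs3, a sorting receptor, had an r of -0.27 and went from 117 CPM in the lowest nuclei to 22.7 in the highest. The enkephalin precursor Penk (-0.24) went from 37.1 to 5.78 CPM, the kinase Sgk1 (-0.24) from 111 to 47.7 and the neurotrophin Bdnf (-0.22) from 136 to 70.9. Penk had an r of 0.23 with Gsg1l, while Sorcs3 and Bdnf had -0.24 and -0.25 with Tafa2. The immediate early genes Fos, Arc and Npas4 had 5, 10 and 8 UMIs in the 427 nuclei, too few for an r, and the other 6, Homer1 and Inhba among them, lay between -0.10 and 0.10. Of the nuclear and depth controls, Snhg11 (-0.46) had the lowest r of all 9646 genes, from 962 CPM in the lowest to 333 in the highest nuclei, and Malat1 stood at -0.20. These counts depended on the draw of UMIs: with a second random thinning, 2 listed genes reached 0.2 and 3 were at -0.2 or less, namely Snhg11, Ntng1 and Sorcs3. Il1rap was then at 0.31, and at 0.48 at 10000 UMIs per nucleus and 0.38 without thinning. It was below the limit at 2000 UMIs per nucleus (0.19), within cluster 1 (0.14) and within cluster 2 (0.12). Within cluster 1 the counts were 0 and 3, and within cluster 2 they were 0 and 2.

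**Figure D5:**
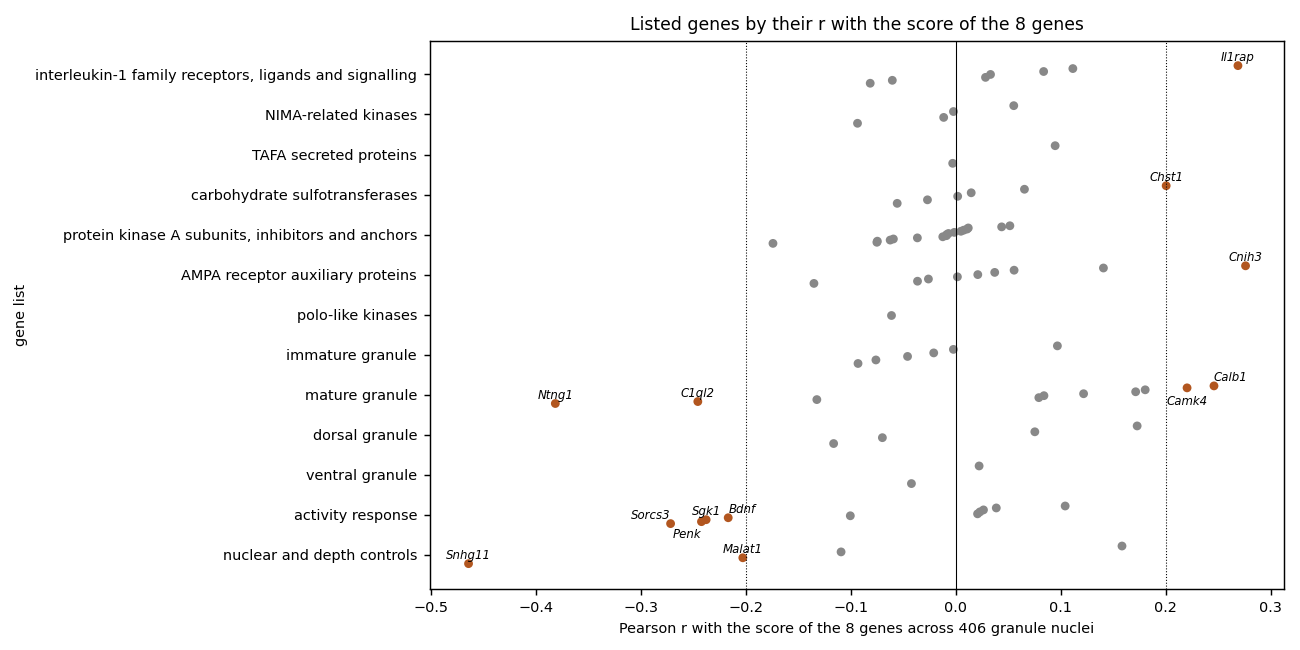
Pearson's r of listed genes (rows are gene lists, points are genes) with the score of the 8 genes across 406 granule nuclei thinned to 5000 UMIs. Orange, labelled points are at 0.2 or more or at -0.2 or less (dotted lines), from Snhg11 at -0.46 to Cnih3 at 0.28; all other listed genes lie between the lines.

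In the E14 brain the 8 genes followed other patterns. Tafa2 was again abundant, at 510 CPM (504 to 516) over all 9036 nuclei. It was highest in clusters left without a name, at 1419 CPM (1369 to 1471) in a cluster led by Zfp804b and Col25a1 and at 1323 (1288 to 1360) in a cluster with Sim1 and Otp among its leading genes. The lowest Tafa2 level of the named classes was 75.7 CPM (66.3 to 86.0) in dorsal radial glia-like nuclei. Gsg1l was at 12.9 CPM (12.0 to 13.8) over all nuclei and at 25.6 (20.7 to 31.2) in cortical excitatory-like nuclei, its highest named class, which also came next after granule nuclei in the adult. Chst9 was at 9.5 CPM (8.73 to 10.3) over all nuclei and at 50.7 (37.3 to 67.5) in an unnamed cluster of 130 nuclei led by Ddc and Penk.

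The other 5 genes were rare at E14. Il1r1 had 76 UMIs in the library, or 1.29 CPM (1.02 to 1.61), and 47 of them were in endothelial-like nuclei, at 18.6 CPM (13.7 to 24.7). The endothelial-like class was thus the highest of the named classes for Il1r1 in both tissues. Nek10, at 5.14 CPM (4.58 to 5.76) over all nuclei, was highest in choroid plexus-like nuclei, at 32.4 (25.6 to 40.5). Ccdc33, at 2.17 CPM over all nuclei, was also highest there, at 11.4 (7.49 to 16.5). Plk5 had 52 UMIs and Akain1 29 in the whole library, 0.882 CPM (0.659 to 1.16) and 0.492 (0.330 to 0.707). Over 7047 E14 nuclei thinned to 2000 UMIs, 10 pairs of the 8 genes had enough nuclei to be measured, and their r lay between -0.023 and 0.024. No named E14 class is a granule class, 57.4% of the nuclei stayed unnamed, and tissue, age, animal and library cannot be told apart between the sections.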

How the data were processed

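Single-nucleus RNA was read from 2 mouse libraries. Per the file headers and methods, the authors aligned reads to mm10 with introns included using Cell Ranger (6.1.2 for the adult, 7.0.1 for E14) and deposited raw UMI counts without normalization; the strand setting is not given in the sources used here. CellBender is named for the embryo, and that matrix was taken as counts from before it. Kept were nuclei of 500 or more UMIs with a mitochondrial share below 5%. Seurat 5.3.0 in R 4.3.3 clustered them (2000 variable genes, 30 components, resolution 0.8), and clusters took a name where 4 or more listed markers were seen in at least 10% of nuclei at 2 times the level elsewhere. A cluster whose median UMI count was under the library median divided by 3 also needed a marker among its 10 leading genes. Those 10 genes could then hold no mitochondrial gene and no marker of a list sharing no marker with its own. At any depth, a cluster stayed unnamed if a list sharing no marker with its own had more markers among the 10 genes. Scrublet (scanpy 1.11.5) marked 6 and 4 doublets by its own threshold, too few to have worked, so the 21 and 653 highest scores were marked and kept. Values use Python 3.11.15, numpy 2.4.6 and scipy 1.17.1: summed CPM, and r of the natural log of counts per 10000 plus 1. Listed genes needed a mean of 0.05 thinned UMIs to be tested for r.

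The 8 genes, the gene lists and the limits were chosen with earlier results of these data known. Named are the 8 genes, the 5 genes of highest and 3 of lowest r with each, listed genes at 0.2 or beyond with one of the 8, relatives set beside a member of their family, class markers and leading genes. Chst1, Calb1, Camk4, C1ql2, Sgk1, the overlapping genes and examples of the cell-state lists were named after their values were seen. With 1 library per tissue there were no tests and no replicate blocks. The scripts were tested on simulated data.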

Additional observations from a re-analysis of the deposited data

How the results depend on the processing

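The count of 8 genes at least 4 times higher in granule nuclei was 8 under all 7 alternatives, which changed the mitochondrial limit, clustering resolution, variable genes, doublets, use of the 8 genes in clustering, shallow nuclei and the comparison class. Of 56 ratios 48 moved within their interval. Against CA1-like nuclei all 8 were larger, 7 of them beyond their interval and up to 197 for Ccdc33. With a 1% mitochondrial limit Tafa2 was below its interval, at 9.70. The count of pairs at 0.2 or more (0) became 1 at 10000 thinned UMIs, 2 without thinning, 1 with a 1% mitochondrial limit and 2 within cluster 1. The count at -0.2 or less (3) became 1 at 2000 thinned UMIs and 0 within cluster 1 and within cluster 2, and was 2 to 4 otherwise. The r of Il1r1 with Gsg1l turned to 0.0077 within cluster 1 and 0.021 within cluster 2; the cause was not tested. With a second thinning, 11 of 15 pairs between sets were negative. Added after the data were seen, the r of Ccdc33 with Stra6 was between 0.11 and 0.49, and listed genes at 0.2 or more and at -0.2 or less numbered 0 and 2 at 2000 thinned UMIs, 9 and 11 at 10000 and 9 and 8 without thinning. No paired analysis was possible because each tissue has 1 library. Medians of 0 UMIs for 7 of the 8 genes limit every value per nucleus.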
